A study of Mus musculus with 4 samples.

Results

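Arterial endothelial cells were picked from the merged matrix by their counts of unique molecular identifiers (UMIs). A cell was taken when it held UMIs from over 200 genes, had under 20% mitochondrial UMIs, and showed at least 1 UMI of Cdh5, at least 1 of Gja5 and at least 1 of any of Stmn2, Sema3g, Gkn3 or Fbln5. Cells with a UMI of Ptprc, Pdgfrb, Prox1, Npr3 or Mki67, which mark leukocytes, mural cells, lymphatic, endocardial or venous, and cycling cells, were left out. This gave 455 of the 53824 deposited cells, called members here. They were read beside 6926 capillary cells, which held Cdh5 and Gpihbp1 and none of the other genes of the rule.

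The study transplanted hearts into the abdomen of C57BL/6J mice and dissociated the grafts on day 5 for droplet single-cell RNA sequencing with 10x 3′ chemistry. The 2 allogeneic grafts came from Balb/C donors and the 2 syngeneic grafts from C57BL/6J donors, all mice being males 8 to 10 weeks old. Grafts were digested whole with collagenases and dispase, so a graft can hold cells of donor and of recipient. Barcodes end in a suffix from 1 to 4, which divides the cells into 4 libraries, and neither the files nor the labels pair a suffix with a graft. The matrix therefore counts as 1 pooled sample, allogeneic and syngeneic grafts were not compared, and no statistical test was run. Arterial and capillary cells of a library were told apart by counts in those same cells, so their differences are given as a description. Libraries 1 to 4, which hold 13112, 13907, 13500 and 13305 cells and 96020294, 115162601, 138892048 and 166079145 UMIs, are given side by side as single libraries of unknown graft.

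Arterial endothelium lines the vessels that carry blood at high pressure and flow. Its identity is laid down by VEGF and Notch signalling: the ligands Dll4, Jag1 and Jag2 on one cell activate Notch1 and Notch4 on the next, and Hey and Hes repressors are turned on in the receiving cell. The connexins Gja5 and Gja4 couple arterial cells electrically through gap junctions, and large arteries rest on an elastic matrix of elastin and fibulins. Capillary endothelium of the heart is instead specialised for lipid uptake: Gpihbp1 holds lipoprotein lipase at the luminal face and Cd36 and Fabp4 carry fatty acids inwards. In a transplanted heart the graft endothelium is also where blood-borne leukocytes first meet the graft, and interferon gamma induces chemokines and antigen presentation in it.

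The members divided unevenly over the libraries, with 74, 158, 176 and 47 cells in libraries 1 to 4. They made up 3.56% (exact Clopper-Pearson 95% interval 3.25 to 3.90) of the 12781 endothelial cells, defined as cells with Cdh5 and no UMI of Ptprc, Pdgfrb, Prox1 or Mki67. By library the share was 1.83, 3.197, 5.32 and 9.42%, with intervals of 1.44 to 2.30% in library 1 and 7.003 to 12.3% in library 4. Library 4 stood apart: only 499 of its 11300 kept cells were endothelial by this definition, while 8660 held Ptprc and no Cdh5. All intervals cover counting error only.

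**Figure D1:**
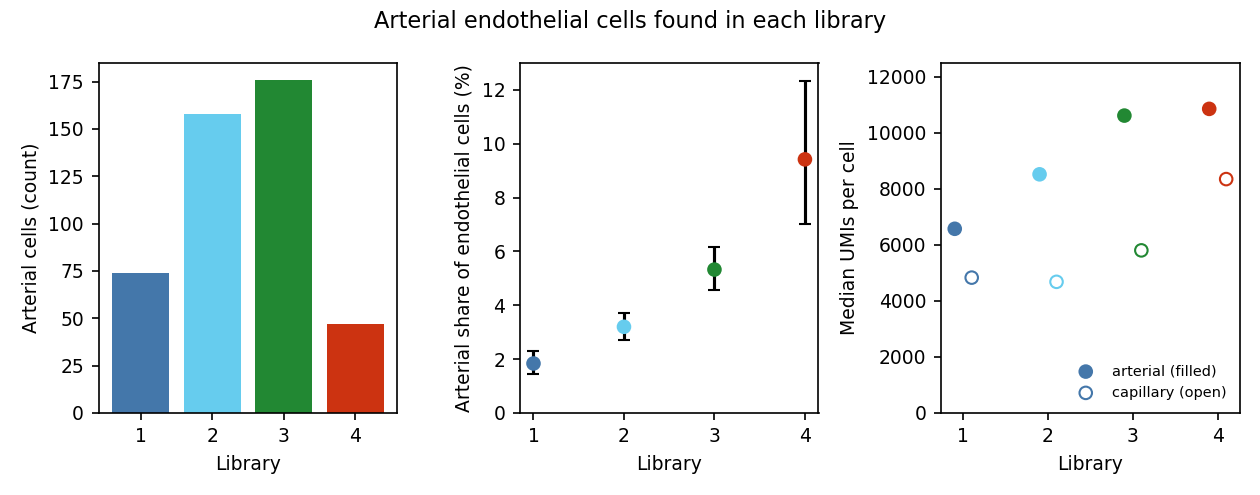
The left panel counts arterial cells in each library, the middle panel gives their share of endothelial cells in percent with exact 95% intervals, and the right panel gives the median UMIs per arterial cell (filled) and capillary cell (open). Library 4 had the fewest members, 47, and the highest share, 9.42%.

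Depth differed between the cells compared. The median member had 9019 UMIs and 3035 genes, against 5044 UMIs and 2052 genes for the median capillary cell. Library medians for members were 6576, 8522, 10621 and 10861 UMIs, and the median mitochondrial share was 5.87% in members and 6.97% in capillary cells. When every cell was thinned at random to 1000 UMIs before the rule was applied, 103 of 10027 endothelial cells met it, a share of 1.03%. Both counts were taken anew from the thinned UMIs. Endothelial cells could therefore drop out, and cells excluded at full depth could enter. Thinned shares kept the order of the libraries, at 0.467, 1.09, 1.35 and 2.36%, but the interval of library 4, 1.09 to 4.44%, rested on 9 cells and overlapped those of libraries 2 and 3. Thinning left out 657 endothelial cells with fewer UMIs. Between libraries 616 cells shared a barcode sequence with a cell of another library, 4 of them members.

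Since the rule selected on counts, the levels of its own genes only describe the members. Among them Fbln5, a fibulin of elastic fibres, was detected in 85.7% of members, Sema3g, a secreted semaphorin of arterial endothelium, in 85.5%, Stmn2, a microtubule regulator, in 65.3% and Gkn3 in 11.4%. Stmn2 was seen in 71.6, 39.9, 88.1 and 55.3% of members of libraries 1 to 4, so library 2 members rested mainly on Fbln5 and Sema3g. Gkn3 was seen in 20, 15 and 17 members of libraries 1 to 3. In library 4 it was seen in 0 of 47 members, which allows a share of up to 6.38% of cells with a UMI (3 cells), not of cells expressing it. Gja5 itself was at a single UMI in 217 members and at 2 or more in 238.

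Gja4, a connexin that the rule did not use, describes the cells on either side of the threshold. Members with a single Gja5 UMI had Gja4 at 210.2 CPM (191 to 231), where CPM are UMIs of a gene per 1000000 non-mitochondrial UMIs of the cells named and the bracket is the exact Poisson 95% interval, and members with 2 or more had 458 CPM (434 to 484). Just outside, the 4084 endothelial cells with at least 1 of Stmn2, Sema3g, Gkn3 and Fbln5 but no Gja5 had 42.5 CPM (40.5 to 44.6), and the 67 cells with Gja5 but none of those 4 genes had 77.0 CPM (53.0 to 108). The 4084 cells held the fibroblast gene Dcn at 866 CPM, against 154 CPM in members. The 67 cells held the neutrophil gene S100a8 at 10167 CPM, against 348 CPM in members. The exclusions removed 390 cells with Pdgfrb, 102 with Ptprc, 36 with Mki67, 24 with Prox1 and 17 with Npr3, some with more than 1. In libraries 1 to 4 they removed 92, 160, 129 and 9 cells with Pdgfrb and 3, 44, 25 and 30 with Ptprc. Members numbered 74, 158, 176 and 47 there. Those with Pdgfrb were deep, with a median of 21799.5 UMIs, and carried the pericyte gene Rgs5 at 4033 CPM (3991 to 4076), against 412 CPM (394 to 430.5) in members.

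Endothelial and arterial markers outside the rule were present, as the label has it. The endothelial genes Pecam1 and Egfl7 stood at 1126 CPM and 1247 CPM in members and 898 CPM and 1304 CPM in capillary cells. The arterial markers Gja4, Hey1 and Dll4 were all higher in members, and the transcription factor Sox17 was at 350.4 CPM in members and 293 CPM in capillary cells. Gja4 was detected in 70.5% of members, 4.58% of capillary cells and 3.50% of 4000 leukocytes (median 12368 UMIs). In the leukocytes of library 4, 5 cells held 38.3% of the 496 Gja4 UMIs and 1 cell held 53, and the part of free RNA in the leukocyte share was not tested. With cells thinned to 1000 UMIs the shares were 25.7, 1.10 and 0.9%.

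Members and capillary cells were then set side by side across all genes. A gene was called when its level differed at least 2-fold in the same direction in the pooled cells and in each of libraries 1 to 3, with 10 CPM added to both levels. Of 8563 genes at 10 CPM or more in either kind, 101 were called higher in arterial cells, 1.18% of those compared, and 28 lower, 0.327%. Library 4, with 47 members, was under the minimum of 50 cells and did not enter this call. Members were chosen by counts in the same cells, so the calls describe them and nothing is read from these shares. When it was also required, 59 higher (0.689%) and 13 lower genes (0.152%) remained. Without library 2, 157 genes were called higher and 62 lower, against 117 and 39 without library 1 and 125 and 38 without library 3. Leaving out a library also removes a condition that a gene had to meet. Of the 101 higher genes, 101, 101 and 100 were called again without libraries 1, 2 and 3. Other causes of these changes were not tested. The median log2 ratio over all compared genes was 0.00. Pooled levels weigh each library by its UMIs, and 2545 of the capillary cells but only 74 members came from library 1.

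**Figure D2:**
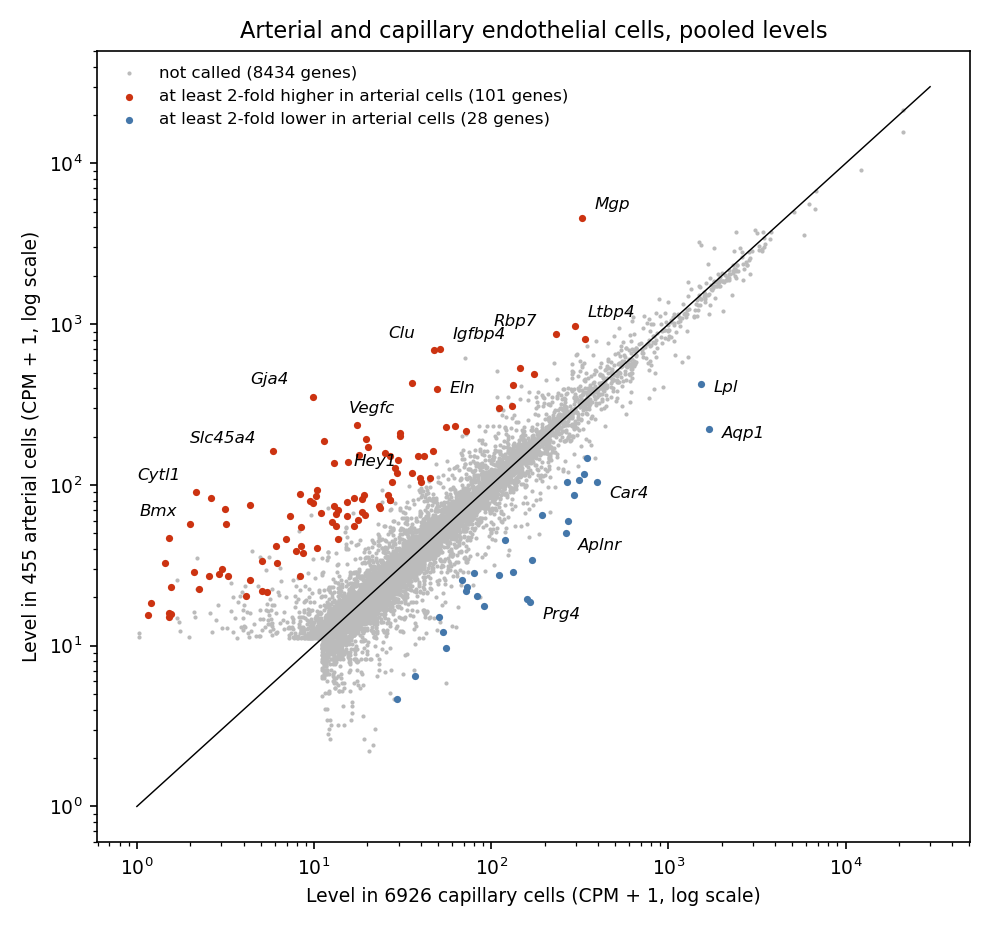
Each point is a gene, with its pooled level in capillary cells on the x axis and in arterial cells on the y axis, both in CPM with 1 added and on log scales; the line marks equal levels. Red points are the 101 genes called higher in arterial cells and blue points the 28 called lower, with Gja4 and Mgp far above the line and Aqp1 and Lpl below it.

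Arterial fate and Notch genes were the list with most called members. Of 23 compared, 9 were higher and 0 lower, and the median log2 ratio of the list was 1.02, with 0.64, 1.15, 1.11 and 1.21 in libraries 1 to 4. Gja4, the second arterial connexin, had the highest ratio of all named genes. Its level in members of libraries 1 to 4 was 240.0, 342, 399.7 and 343 CPM, and in capillary cells it was 4.02, 6.35, 16.3 and 26.8 CPM. The lowest arterial library thus lay well above the highest capillary library, and the pooled ratio was 19.4-fold with 10 CPM added.

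The 2 connexins lie on different chromosomes, Gja5 on chromosome 3, 96904693 to 97077416 and Gja4 on chromosome 4, 127311421 to 127314039 (GRCm38, GENCODE M21). The 250 bases before their RefSeq starts are shown because the rule takes cells by the first gene and the second had the highest ratio. The RefSeq start of Gja5 lies inside the longer span that GENCODE gives it. The windows are chr3:97032152-97032401 on the plus strand and chr4:127314040-127314289 on the minus strand (GRCm38.p6), each written 5′ to 3′ with capitals marking CCACCC, read as GGGTGG where it lies on the opposite strand, a core that Krüppel-like factors bind.
Gja5: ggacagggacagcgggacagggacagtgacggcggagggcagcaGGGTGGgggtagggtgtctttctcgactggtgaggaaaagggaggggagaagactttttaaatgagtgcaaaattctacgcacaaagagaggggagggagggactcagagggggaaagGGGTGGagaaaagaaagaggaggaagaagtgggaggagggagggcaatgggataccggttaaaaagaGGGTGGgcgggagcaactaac
Gja4: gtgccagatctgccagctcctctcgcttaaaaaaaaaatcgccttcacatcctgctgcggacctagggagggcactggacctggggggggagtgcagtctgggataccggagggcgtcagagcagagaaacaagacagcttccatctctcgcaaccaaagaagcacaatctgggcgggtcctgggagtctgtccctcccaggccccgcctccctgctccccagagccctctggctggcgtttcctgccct
CCACCC occurred 3 times before Gja5, each time on the opposite strand, and not before Gja4. TGGGAA, the core bound by the Notch effector Rbpj, occurred in neither window on either strand. Across 32851 such windows, 28.1% held CCACCC and 21.6% held TGGGAA. Of 18 arterial fate and Notch genes with a window, 6 held CCACCC and 4 held TGGGAA. A match is a description of letters and was not tied to binding here.

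Among Notch ligands, Jag1 stood at 226, 102, 202 and 51.9 CPM in members and 30.4, 21.7, 21.7 and 12.01 CPM in capillary cells of libraries 1 to 4, higher in members in every library. Dll4, the ligand that leads arterial specification, stood at 259.7, 586, 318 and 185 CPM in members against 221, 154, 185 and 147 CPM. It was not called, since only in library 2 did members stand 2-fold above capillary cells, and its pooled levels were 380 CPM (363 to 398) and 183 CPM (179 to 187). Jag2 was at 211 CPM and 108 CPM. The receptors Notch1 (395 CPM and 252 CPM) and Notch4 (164 CPM and 104 CPM) were not called either.

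The Notch target Hey1 was among the called genes, at 131, 193, 243 and 68.6 CPM in members and 17.0, 16.5, 27.6 and 3.82 CPM in capillary cells. Hes1, another target of the pathway, was not called, at 197 CPM in members and 288 CPM in capillary cells. Vegfc, a growth factor for lymphatic and coronary vessels, was at 201, 190.5, 322 and 46.4 CPM against 17.5, 11.999, 25.0 and 2.18 CPM. Bmx, a cytoplasmic tyrosine kinase of arterial endothelium, was at 81.5, 52.8, 62.3 and 9.27 CPM in members and at or under 1.25 CPM in capillary cells of every library. The remaining called members of the list were Mecom, a zinc-finger transcription factor (302 CPM and 109 CPM), Rbp7, a retinol-binding protein (869.9 CPM and 231 CPM), Ltbp4, which binds latent TGF-beta (978 CPM and 294 CPM), and Alox12, a lipoxygenase (72.7 CPM and 12.02 CPM).

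Efnb2, the classic arterial ephrin, was at 279, 316, 387 and 77.9 CPM in members and 176, 84.3, 149.7 and 27.8 CPM in capillary cells. In library 1 the ratio was under 2-fold, so it was not called. Epas1, the hypoxia-inducible factor of endothelium, showed 1199.5 CPM and 587 CPM, Sox18 554 CPM and 326 CPM, and Unc5b, a netrin receptor, 164 CPM and 79.9 CPM. Nrp1, a co-receptor for VEGF, was at 494 CPM in members and 626 CPM in capillary cells.

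**Figure D3:**
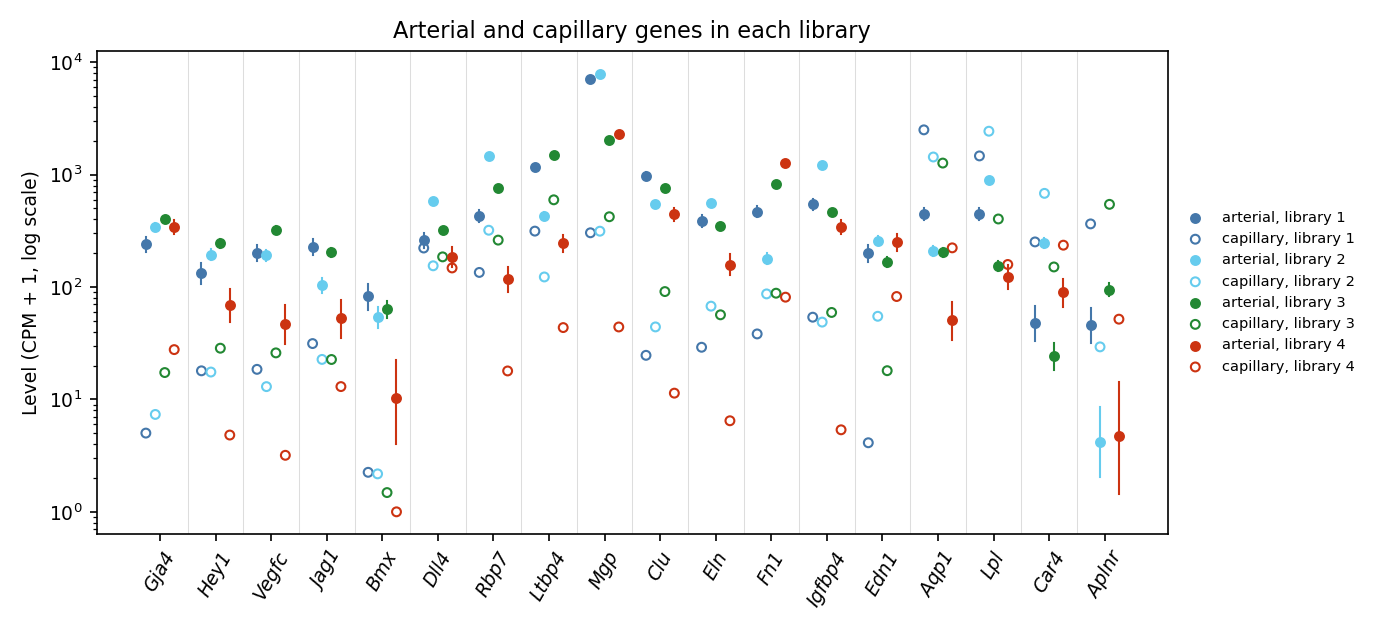
Levels of 18 genes in arterial cells (filled, with exact Poisson 95% intervals) and capillary cells (open) of libraries 1 to 4, in CPM with 1 added on a log scale. From Gja4 to Bmx the filled points lie above the open points of the same library, while for Aqp1 they lie below, and members of library 4 are the lowest for Hey1, Vegfc, Jag1 and Bmx, as for Vegfc at 46.4 CPM.

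The arterial wall matrix list held 5 called genes of 15 compared, all higher, and a median log2 ratio of 1.03. By library the median was 2.28, 0.70, 1.25 and 1.00. Mgp, an inhibitor of calcification and of BMP signalling (chromosome 6, 136872435 to 136875823), was at 7124, 7929, 2018 and 2320.5 CPM in members and 303, 313, 421 and 43.1 CPM in capillary cells. It was detected in 85.3% of members. In members of libraries 1 to 4, 5 cells of each library held 53.0, 32.9, 38.9 and 65.6% of its UMIs. Mgp was also present at 886 CPM in leukocytes and detected in 48.4% of them (median 12368 UMIs) and in 67.7% of capillary cells (median 5044 UMIs). After thinning to 1000 UMIs, the shares in libraries 1 to 4 were 36.5, 15.6, 35.2 and 6.34% of leukocytes against 26.2, 22.2, 32.0 and 6.19% of capillary cells, and the part of free RNA in the capillary levels was not tested. Clu, the secreted chaperone clusterin, was at 968, 542, 763 and 443 CPM against 23.7, 43.2, 90.1 and 10.4 CPM. The 5 highest members of each library held 37.8, 22.8, 13.1 and 73.2% of its UMIs. Eln, elastin itself, was at 386, 557, 345 and 158 CPM against 28.1, 66.6, 55.6 and 5.46 CPM. Edn1, the vasoconstrictor endothelin, was at 199, 258, 167 and 250.4 CPM against 3.12, 53.9, 17.0 and 81.3 CPM, and the smallest ratio was in library 4. Cytl1, a small secreted protein, completed the called genes at 319, 66.9, 54.9 and 7.42 CPM against 1.39, 0.765, 1.64 and 0 CPM. In library 1 it was the highest, and 5 cells held 77.3% of its 211 UMIs there. Its log2 difference, with 10 CPM added, was 3.15, and 2.52 without library 1.

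Fn1, fibronectin, and Fbln2, another fibulin, had pooled ratios of 7.86 and 4.50 but were not called, because library 2 fell short. Fn1 was at 467, 178, 817 and 1259 CPM in members of libraries 1 to 4 and 37.3, 85.9, 87.1 and 80.3 CPM in capillary cells, so library 2 members were the lowest and library 4 members the highest. Fbln2 was at 556, 90.7, 889 and 158 CPM against 106, 81.0, 166 and 9.28 CPM. The basement membrane collagens Col4a1 (1977 CPM and 2128 CPM) and Col4a2 (1152 CPM and 1236 CPM) did not differ 2-fold.

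Outside those lists, the named genes with the highest ratios were Igfbp4, Slc45a4, Col18a1, Htra1 and Pcsk5. Igfbp4, which binds insulin-like growth factors, was at 542, 1207, 467 and 341 CPM in members and 52.9, 47.8, 58.4 and 4.37 CPM in capillary cells. Slc45a4, a solute carrier, was at 77.0, 237, 132 and 156 CPM against 3.95, 6.71, 3.67 and 2.18 CPM. Col18a1, the collagen from which endostatin is cut, was at 477, 299.9, 559 and 230.0 CPM against 15.9, 35.9, 57.2 and 50.2 CPM. The secreted protease Htra1 (188 CPM and 10.4 CPM) and the proprotein convertase Pcsk5 (82.4 CPM and 1.63 CPM) were likewise called higher.

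Of the TGF-beta and BMP list, 2 of 17 genes were higher, Ltbp4 and Smad6, and the median log2 ratio was 0.74. Smad6, an inhibitor of BMP signalling, was at 112, 267, 110.3 and 124 CPM in members and 44.7, 59.1, 31.6 and 12.01 CPM in capillary cells. The genes that were not called included the receptor Acvrl1 at 262 CPM and 121 CPM, Smad7 at 334 CPM and 159.8 CPM, and Tgfb2 at 50.6 CPM and 7.18 CPM. The BMP targets Id1 (1153 CPM and 1071 CPM) and Id3 (1061 CPM and 1028 CPM) were not called.

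For vascular tone and flow, 3 of 14 genes were higher: Edn1, Alox12 and Ace. Ace, which makes angiotensin II, was at 193, 255, 223 and 89.0 CPM in members and 30.5, 118, 56.5 and 42.0 CPM in capillary cells. The flow-responsive factors Klf2 (1950.2 CPM and 1722 CPM) and Klf4 (1046 CPM and 1169 CPM) and the nitric oxide synthase Nos3 (197 CPM and 130.1 CPM) were not called. In the coagulation list 1 of 9 was higher, Vwf, the von Willebrand factor that tethers platelets, at 297, 165, 228 and 64.9 CPM against 22.9, 25.2, 49.997 and 3.82 CPM. The fibrinolysis activator Plat was at 271 CPM and 114 CPM and the anticoagulant receptor Thbd at 147 CPM and 215 CPM, neither of them called.

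Among the gene lists, capillary lipid uptake had the largest number of lower genes, although 28 genes were called lower in all. Of 18 compared, 4 were lower and none was higher, with a median log2 ratio of -0.72. By library the median was -1.05, -0.49, -0.78 and 0.38, so library 4 went the other way. Its summed level there was 16638 CPM in members and 12126 CPM in capillary cells. Capillary cells had been chosen by Gpihbp1, so that gene was not counted. Aqp1, the water channel (chromosome 6, 55336432 to 55348555), was at 447, 209, 202 and 50.1 CPM in members and 2503, 1435, 1267 and 222 CPM in capillary cells, lower in members of every library. Lpl, lipoprotein lipase, was at 447, 904, 153 and 122 CPM against 1467, 2434, 402 and 158 CPM. In library 4 the 2 levels were close, while in the others members were at least 2-fold lower. Car4, a carbonic anhydrase of the capillary surface, and Kcna5, a potassium channel, were the other called genes, at 104 CPM against 394 CPM and 44.1 CPM against 119 CPM.

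The fatty acid carriers Fabp4 and Cd36 were not called. Fabp4 was at 8631, 27796, 10376 and 11372 CPM in members and 20614, 24129, 18839.6 and 8034 CPM in capillary cells, and Cd36 at 1010.0, 3212, 1759 and 634 against 1911, 2997, 2294 and 432 CPM. Members of library 2 had the highest level of both genes. Rgcc, a cell cycle regulator of capillaries, was at 626 CPM against 1292 CPM and Cd300lg at 379 CPM against 618 CPM. With capillary cells taken with or without Gpihbp1, 90 of the 101 higher and all 28 lower genes were called again.

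Other named genes called lower were Aplnr, the apelin receptor, at 45.3, 3.22, 93.9 and 3.71 CPM in members against 364, 28.4, 543 and 50.8 CPM, Prg4, a lubricating proteoglycan, at 17.6 CPM against 165 CPM, the monooxygenases Fmo1 (33.0 CPM and 170.0 CPM) and Fmo2 (18.4 CPM and 158 CPM), and the vasodilator peptide Adm (16.6 CPM and 89.7 CPM). Xdh, xanthine oxidase, was at 27.5 CPM against 132 CPM. Trp53i11 and Rcsd1 were lower at 58.7 CPM and 26.5 CPM, against 269 CPM and 110.4 CPM. Of the angiogenic and tip cell list 2 of 18 were lower, Adm and Trp53i11, and its median log2 ratio was -0.10. Pgf and Apln, both tip cell ligands, were at 126 CPM against 238 CPM and 15.2 CPM against 40.6 CPM without a call.

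Lists without a called gene were pan-endothelial genes (0 of 15 called, median log2 ratio 0.05), MHC class I (0 of 14, 0.16), interferon gamma response (0 of 23, 0.10), immediate early genes (0 of 14, -0.26), metallothionein and stress (0 of 13, -0.11) and mesenchymal transition (0 of 11, 0.14). MHC class II also had none of 6 called, with a median of 1.02 in the pool, where library 4 supplied most of its UMIs. For the interferon gamma response the pooled median differed in sign from the library medians, which were -0.46, -0.09, -0.18 and -0.00051. For MHC class I they were -0.27, 0.01, -0.08 and 0.14, and for immediate early genes -0.19, 0.03, 0.12 and 0.45. Hypoxia and glycolysis had 1 lower gene of 15, Adm, and a median of 0.04. Type I interferon response had 1 lower gene of 16, the antiviral Rsad2, at 242, 25.7, 138 and 124 CPM in members and 593, 72.8, 395 and 364 CPM in capillary cells. Leukocyte adhesion had 1 of 10 higher, Vcam1, a ligand of leukocyte integrins (307 CPM and 129.7 CPM). In members of libraries 1 to 4, 5 cells of each library held 74.1, 41.4, 55.8 and 56.1% of its UMIs. Chemokines had Cx3cl1, the membrane-bound fractalkine, higher (72.9 CPM and 22.1 CPM) and the monocyte chemokine Ccl2 lower (86.0 CPM and 291 CPM).

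The called genes were next read in endothelial cells with Npr3, a receptor found in endocardium and veins. The 184 endothelial cells with Npr3 and no Gja5, of which 1 was in library 4, had Mgp at 4530.3 CPM (4432 to 4631), which overlapped the 4595 CPM (4536 to 4656) of members. Clu (563 and 686 CPM), Igfbp4 (477 and 696 CPM) and Vwf (571 and 199.8 CPM) also stood far above their capillary levels in both kinds. The fibroblast gene Dcn was at 2604 CPM (2529.7 to 2681) in the cells with Npr3, 154 CPM (144 to 166) in members and 293 CPM (288 to 299) in capillary cells, and its part in these levels was not tested. Gja4 stood at 32.3 CPM (24.4 to 41.8) in cells with Npr3 against 354 CPM (337 to 371). In libraries 1 to 3 the level of Gja4 in cells with Npr3 was 28.3, 34.2 and 27.5 CPM. Hey1 (32.3 and 193 CPM), Vegfc (30.6 and 234 CPM) and Jag1 (29.4 and 158 CPM) also had lower levels in these cells than in members. Cytl1 was higher in cells with Npr3, at 257 CPM (234 to 282), than in members (88.9 CPM) or capillary cells (1.15 CPM). Of the cells with Npr3, 97 came from library 1. Of the venous and endocardial list itself, 4 of 12 compared genes were called higher in members than in capillary cells: Vwf, Vcam1, Cytl1 and Tmem100. Aplnr was lower. The venous regulator Nr2f2 was at 11.5 CPM in members, 48.6 CPM in capillary cells and 128 CPM in cells with Npr3.

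Members were not uniform. With 1, 2, 3 or all 4 of Stmn2, Sema3g, Gkn3 and Fbln5 detected there were 69, 143, 199 and 44 members, and some genes outside the rule differed along this order in the pool. Gja4 stood at 60.4, 247, 435 and 614 CPM, Clu at 146, 273, 727 and 2393 CPM, and Mgp at 598, 2948, 3237 and 21487 CPM. Within libraries the order broke in places, as for Gja4 in library 1, at 61.9, 43.9, 311 and 450.3 CPM. Lpl ran the other way, at 1049, 708, 188 and 40.2 CPM. Other capillary genes took different courses in the pool. Aqp1 was at 515, 215, 186 and 65.7 CPM and Rgcc at 1303, 762, 478 and 161 CPM, lower already at 2 genes. Pooled Gpihbp1 was at 1504, 1521, 763 and 82.6 CPM and Cd36 at 2388, 2569, 1844 and 513 CPM. Within libraries 1 to 3 Gpihbp1 was lower with 2 genes than with 1, at 721, 2109 and 1024 against 939, 2289 and 1074 CPM. In library 4 it was higher, at 1058 against 418 CPM. The Notch ligand Dll4 showed no steady order, at 249, 448, 362 and 419 CPM. Rbp7 peaked in between, at 604, 1068, 931 and 263 CPM. The order also followed depth up to 3 genes, with median UMIs of 5721, 8872, 10377 and 10308. The neutrophil gene S100a8 was at 1117, 439, 163 and 112 CPM and Dcn at 241, 284, 68.7 and 93.2 CPM. The part of depth and of RNA from other cells in the order was not tested. In each of libraries 1 to 3 members with all 4 genes had more Mgp and Clu and less Lpl than those with 3, and in library 1 their median UMIs were 8834 against 6297.

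**Figure D4:**
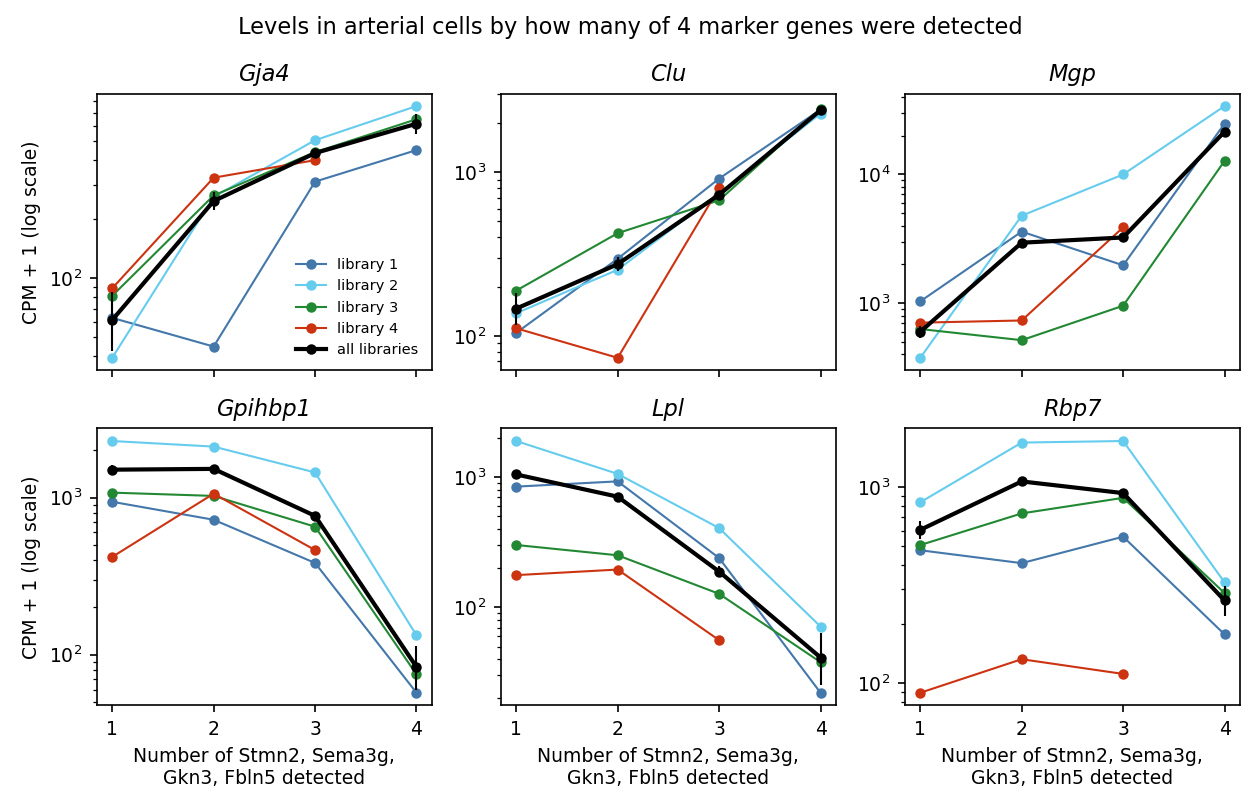
Levels of 6 genes (CPM with 1 added, log scale) in members grouped by how many of Stmn2, Sema3g, Gkn3 and Fbln5 were detected; coloured lines are libraries and the black line all libraries with exact Poisson 95% intervals. Gja4, Clu and Mgp climb to their highest pooled level with all 4 genes, at 614, 2393 and 21487 CPM, and Gpihbp1 and Lpl drop to 82.6 and 40.2 CPM; library 4 had no member with all 4.

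All members with the 4 genes hold Gkn3 by construction, a gastrokine reported in arterial endothelium (chromosome 6, 87383256 to 87388935). In all, 52 members held Gkn3, 44 of them with all 4 genes. The 52 had a median of 9692 UMIs, against 8872 in the 403 members without Gkn3. This split was made after the levels had been seen, and calls required 2-fold in the pool and in libraries 1 to 3. These libraries held 20, 15 and 17 members with Gkn3, and the minimum per library, also set after the data were seen, was 15 cells for this split in place of 50. Of 8651 genes compared, 54 were higher with Gkn3 (0.624%) and 66 lower (0.763%). Mgp was at 26292, 32590.4 and 12733 CPM in members with Gkn3 of libraries 1 to 3, and 748, 5744 and 840.0 CPM in those without. Eln was at 1083, 2514 and 1743 CPM against 155, 383 and 192 CPM. Cytl1 was detected in 55.8% of members with Gkn3 and 5.21% of the others, and 373 of its 439 UMIs lay in members with Gkn3.

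Bgn, the proteoglycan biglycan (1049 and 105 CPM with and without Gkn3), the copper carrier Cp (191 and 16.0 CPM), the protease Ctsh (230.3 and 25.5 CPM) and the matrix protein Spon1 (70.9 and 4.06 CPM) were also higher. The capillary and lipid uptake list had 12 of 18 genes lower and none higher. Lpl was at 51.2 against 468 CPM and Cd300lg at 35.4 against 418 CPM. Scgb3a1, a small secreted protein, was higher in members than in capillary cells (149.6 CPM and 37.5 CPM) but lower with Gkn3 (1.97 against 167 CPM). Igfbp7, Inhbb, Fabp5, Angptl4 and Fscn1 were lower as well, at 746, 7.87, 102, 11.8 and 19.7 CPM with Gkn3.

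Genes of other cells also differed with Gkn3, and their part in these levels was not tested. In library 1 the summed fibroblast markers were at 2994 CPM with Gkn3 and 531 CPM without, while in libraries 2 and 3 they were at 31.6 and 448 CPM with Gkn3 and 189 and 542 CPM without. A single cell carried 86.6% of the Dcn UMIs of members with Gkn3, whereas the top cell held 12.7% of Mgp and 4.04% of Clu. Haemoglobin and Alas2 transcripts summed to 49161 CPM with and 19403 CPM without Gkn3 in library 1, 166 and 5931 CPM in library 2, and 37.0 and 3790.1 CPM in library 3. Pericyte markers were at 30.2, 7.91 and 1022 CPM with Gkn3 in libraries 1 to 3 and 722, 256 and 643 CPM without. Granulocyte markers in library 2 were at 1202 and 3097 CPM. Mgp and Eln were at least 2-fold higher with Gkn3 in libraries 2 and 3 as well.

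Members of the 4 libraries were then compared with each other. Over libraries 1 to 3, 169 of 9112 genes (1.85%) had a highest level at least 4-fold the lowest, with 10 CPM added, and with library 4 included 449 of 9329 (4.81%). The count over libraries 1 to 3 dropped to 24 without library 2 and 86 without library 1. Both counts rest on unlabelled libraries and describe them only. All 23 genes of the interferon gamma response list passed over the 4 libraries, 22 with their highest level in library 4 and 20 with their lowest in library 2. Its summed level in members was 4658, 853, 2799 and 16913 CPM in libraries 1 to 4. Capillary cells gave 5754, 884, 3315 and 17888 CPM, so both kinds of cell followed the same order of libraries.

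Most of these genes encode effectors of cell defence. Gbp4, an interferon-induced GTPase, was at 119, 27.0, 81.0 and 2754 CPM in members of libraries 1 to 4. Gbp2b, another GTPase of that family, was found in members of library 4 only, where it stood at 1725 CPM (1616 to 1839.6), with capillary cells at 1999.7 CPM (1936 to 2066). In members of libraries 1 to 3 it had no UMI, with upper bounds of 5.57, 2.37 and 1.69 CPM. Whether its reads align alike from both donor strains was not tested. Irf1, a transcription factor induced early, ran differently at 1187, 271, 741 and 798 CPM, highest in library 1. Iigp1, an immunity-related GTPase, was at 959, 27.7, 573 and 2176 CPM. Reads of closely related Gbp, Irgm and Tgtp genes may be split between copies, so single members of these families are less certain than their sum.

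Gbp5, a further GTPase of the family, was at 119, 3.22, 33.9 and 566 CPM in members, and its upstream window is shown because it holds the interferon element searched. The 250 bases before its RefSeq start are chr3:142496684-142496933 on the plus strand (GRCm38.p6), 5′ to 3′, with capitals marking GAAANNGAAA, the element bound by interferon regulatory factors, on either strand.
Gbp5: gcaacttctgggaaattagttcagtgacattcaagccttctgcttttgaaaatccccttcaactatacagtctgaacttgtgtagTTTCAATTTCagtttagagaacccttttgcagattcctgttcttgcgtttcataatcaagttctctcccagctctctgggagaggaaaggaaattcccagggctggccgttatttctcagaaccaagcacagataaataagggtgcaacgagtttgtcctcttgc
GAAANNGAAA was found once, on the opposite strand. Of the 23 interferon gamma response genes, 17 had a window in the table, and 10 of them held it. Among all windows it occurred in 2.98%. Of 13 type I interferon genes with a window 7 held it, of 13 MHC class I genes 3 and of 9 MHC class II genes 1. Of 18 arterial fate and Notch genes with a window, 1 held it.

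Ubd, a ubiquitin-like modifier induced by interferon gamma and TNF (chromosome 17, 37193892 to 37196095), was detected in 30 of 47 members of library 4 and in 0 of the 408 members of libraries 1 to 3, which allows up to 4.05, 1.90 and 1.70% of cells with a UMI in those libraries (3 cells), not of cells expressing it. Leukocytes of library 4 had a Ubd UMI in 14.2% of cells (median 14164 UMIs). Its level in library 4 was 1041 CPM (956 to 1130.4) in members and 1892 CPM (1829 to 1956) in capillary cells. Arterial cells thus had the lower level. The 5 highest members held 66.7% of its UMIs. Thinned to 1000 UMIs, 34.0% of arterial and 42.3% of capillary cells of library 4 kept a UMI. UMIs of Cxcl9, Cd74 and H2-Ab1 were in 45, 47 and 46 of the 47 members.

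Chemokines differed in kind between libraries. Cxcl9, which draws activated T cells, was at 148, 3.86, 51.7 and 8903 CPM in members and 623, 26.6, 253 and 11394 CPM in capillary cells, while its relative Cxcl10 was at 276, 10.3, 99.4 and 2282 CPM in members and 465, 42.5, 289 and 2901 CPM in capillary cells. Capillary cells had the higher level of both in every library, but pooled levels of Cxcl9 (1016 CPM and 755 CPM) were set by library 4 and neither gene was called. In library 4 95.7% of members and 99.0% of capillary cells had a Cxcl9 UMI, but so did 93.6% of leukocytes, and after thinning the shares were 89.4, 96.4 and 61.9%. Median depths were 10861, 8352 and 14164 UMIs. The neutrophil chemokines were highest in library 2, where Cxcl1 stood at 1235 CPM in members and 1017 CPM in capillary cells and Cxcl2 at 1106 and 1329 CPM. In the other libraries members had at most 277 CPM of Cxcl1 and 174 CPM of Cxcl2. Cxcl5 was at 590.1 CPM (553 to 629.6) in members of library 2, but 90.3% of its UMIs came from 5 cells. Cxcl12, a chemokine made by arterial cells in development, was at 830.3, 836, 2109.8 and 1170.4 CPM, highest in library 3.

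**Figure D5:**
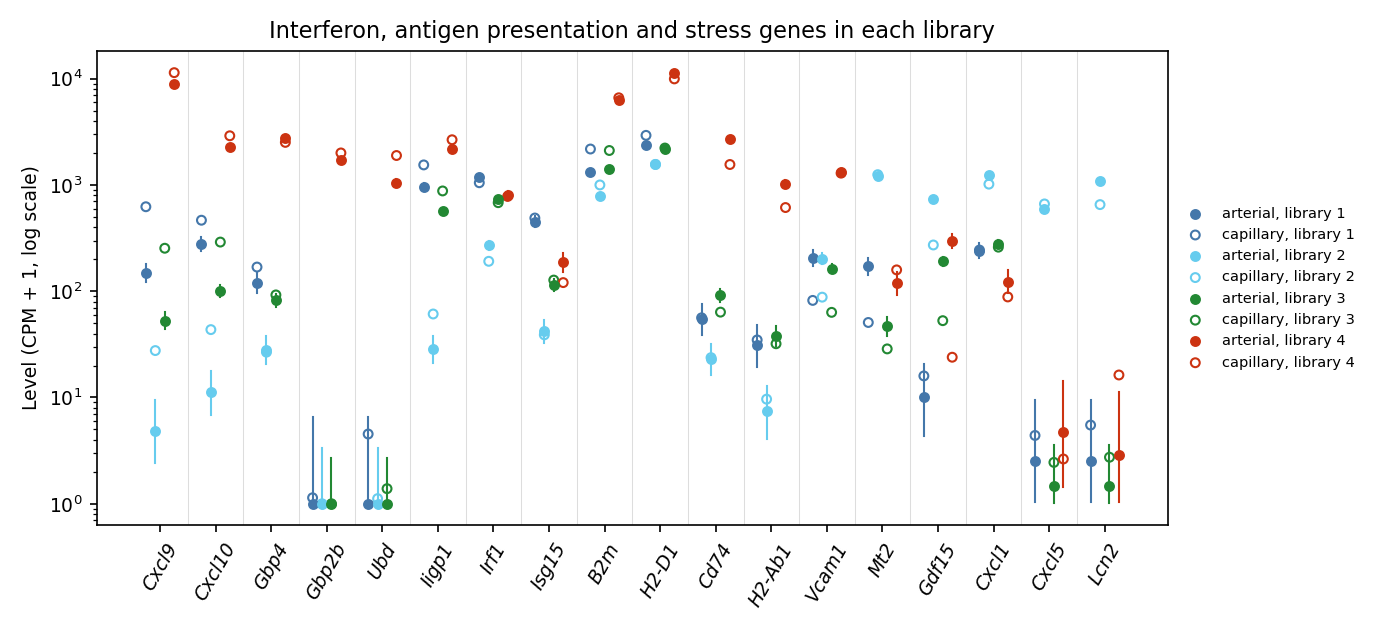
Levels of 18 interferon, antigen presentation and stress genes in arterial cells (filled, with exact Poisson 95% intervals) and capillary cells (open) of libraries 1 to 4, in CPM with 1 added on a log scale. Library 4 is highest for genes from Cxcl9 to Ubd and for B2m to Vcam1, at 8903 CPM of Cxcl9 in members, and library 2 is highest for genes from Mt2 to Lcn2.

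Antigen presentation followed library 4. The MHC class I list passed the 4-fold limit for 12 of 14 genes and summed to 7893, 4922, 6938 and 29669 CPM in members. B2m, the light chain, was at 1315, 787, 1422 and 6266 CPM and the transporter Tap1 at 136, 30.9, 94.8 and 586 CPM. MHC class II passed for 9 of 10 genes, with sums of 154, 61.8, 219 and 5444 CPM in members and 179, 82.1, 194 and 3335 CPM in capillary cells. Reads from both donor strains were aligned to 1 reference genome, and H2 genes share long stretches, so levels of single H2 genes are uncertain.

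Within library 4, members had more class II than capillary cells. Cd74, the invariant chain, was at 2721 CPM (2584 to 2864) against 1556 CPM (1499.8 to 1615), and H2-Ab1 at 1024 CPM (940.3 to 1113) against 612 CPM (577 to 649). Of the 47 members, 5 cells held 35.0% of the Cd74 and 34.8% of the H2-Ab1 UMIs. Of the 202 capillary cells, 5 held 24.2 and 15.9%. Ciita, the transactivator of class II genes, was at 74.2 CPM (53.0 to 101) against 39.3 CPM (30.8 to 49.5). After thinning, 83.0% of members, 58.8% of capillary cells and 86.5% of leukocytes of library 4 kept a UMI of Cd74. Leukocytes of library 4 had Cd74 at 12267 CPM, 1.95 times their Lyz2, a myeloid lysozyme, whereas in members Cd74 was 12.3 times Lyz2 (221 CPM) and in capillary cells 5.04 times (309 CPM). Lyz2 follows myeloid cells only, and the part of leukocyte RNA in these class II levels was not tested. Ubd stood at 20.3 CPM in the same leukocytes. Other genes higher in members than capillary cells of library 4 were Fn1, at 1259 against 80.3 CPM, and the tetraspanin Tspan8, at 358 CPM (309 to 412) against 133 CPM (117 to 150.4). The intervals of Vcam1 overlapped at 1323 CPM (1227 to 1423) and 1291 CPM (1239 to 1344). Serpina3g, a serine protease inhibitor, was at 0, 0.644, 0.458 and 1838 CPM in members of libraries 1 to 4. Whether its reads align alike from both donor strains was not tested.

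The type I interferon list was lowest in library 2 as well. In members it summed to 2299, 572, 1645 and 3595 CPM, with 14 of 16 genes past 4-fold, 11 highest in library 4 and 3 in library 1. Isg15, a ubiquitin-like protein, was at 449.9, 41.2, 113 and 185 CPM and Ifit1, which binds viral RNA, at 311, 17.4, 91.6 and 195 CPM, both highest in library 1. Each of the 14 genes had its lowest level in library 2.

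Another set of genes was highest in members of library 2. The metallothionein Mt1 was at 722, 2209, 225 and 288 CPM and Mt2 at 171, 1206, 45.8 and 119 CPM in members of libraries 1 to 4. Both were also highest in library 2 among capillary cells, at 249.6, 2209, 166 and 318 CPM and 49.8, 1248, 27.7 and 158 CPM. Gdf15, a stress cytokine, was at 9.06, 734, 191 and 297 CPM, and Lcn2, an acute-phase protein that binds iron-loaded siderophores, at 1.51, 1096, 0.458 and 1.85 CPM. Gdf15 in library 2 was at 734 CPM (692 to 777) in members and 271 CPM (264 to 279) in capillary cells. Timp4, a metalloproteinase inhibitor, was at 39.3, 424, 17.9 and 9.27 CPM and Inhbb, an activin subunit, at 7.55, 223, 44.0 and 137 CPM. In capillary cells of library 2, Lcn2 was at 652 CPM, Timp4 at 617 CPM and Inhbb at 217 CPM. The neutrophil genes S100a9, S100a8 and Retnlg were at 1224, 1080.5 and 593 CPM in members of library 2, and at 2094, 1956 and 656 CPM in its capillary cells. Cxcl3 (0, 352, 1.37 and 0 CPM) and Il1b (12.1, 250.3, 7.33 and 150.2 CPM), which neutrophils also make, were likewise highest there, and the part of neutrophil RNA in these levels was not tested.

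Arterial fate and Notch genes were read the same way. Over libraries 1 to 3 none of the 24 arterial fate and Notch genes passed 4-fold, while 7 did once library 4 was included, 6 of them with their lowest level there. Rbp7 at 427, 1469, 764 and 117 CPM, Vegfc at 46.4 CPM in library 4 and Efnb2 at 77.9 CPM in library 4 were among them, and Tspan8 had its highest level there, at 52.8, 11.6, 31.6 and 358 CPM in libraries 1 to 4. In capillary cells of libraries 1 to 4, Rbp7 was at 134, 319, 261 and 16.9 CPM and Efnb2 at 176, 84.3, 149.7 and 27.8 CPM. Tspan8 was highest in library 4 there too, at 3.53, 1.82, 4.64 and 133 CPM.

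Markers of other cell types were read as whole lists, and their part in the results was not tested. Fibroblast markers summed to 457 CPM in members and 689 CPM in capillary cells, with Dcn the most abundant at 616, 107, 82.0 and 14.8 CPM in members of libraries 1 to 4. In library 1 their sum was higher in members, at 1146 against 682 CPM, and in libraries 2 to 4 it was lower. Pericyte markers other than Pdgfrb summed to 456 and 179 CPM, nearly all of it Rgs5, at 504, 208, 621 and 42.7 CPM in members, and 5 of its 7 genes had the higher level in members. Of the others, Notch3 was at 11.3 CPM and 4.61 CPM and Kcnj8 at 5.47 CPM and 7.48 CPM. Smooth muscle markers summed to 307 and 312 CPM, with Acta2 first at 81.4 CPM and Myh11 at 24.3 CPM. Cardiomyocyte markers summed to 207 against 687 CPM, led by Myl2. Macrophage markers summed to 181 and 248 CPM, led by Lyz2, granulocyte markers to 944 and 1889 CPM, led by S100a9, and T and NK cell markers to 11.7 and 9.58 CPM, led by Gzma at 0, 0, 0 and 27.8 CPM in members of libraries 1 to 4. B cell, Schwann and lymphatic markers summed to 3.24, 12.6 and 86.6 CPM in members. Of the mesothelial markers 4 of 6 were at 0 and Wt1, which injured endothelium also expresses, was at 172 CPM. Of the B cell markers Ms4a1 was at 0.

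Erythroid transcripts, the haemoglobins and Alas2, summed to 26831, 5462, 3418 and 3112 CPM in members of libraries 1 to 4 and 21947, 4872, 6442 and 5457 CPM in capillary cells. They enter the totals behind every CPM, most in library 1, and near-identical globin copies may share reads. Of the marker lists, none had a gene called between members and capillary cells.

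Last, members with Fbln5 but no Stmn2 were set beside members with Stmn2 but no Fbln5. No library held the chosen minimum of 30 cells of both kinds, so only pooled levels were compared. Library 1 held 13 and 10 cells of the 2 kinds and library 3 held 19 and 17. Of the 125 cells of the first kind 76 came from library 2, against 3 of the 32 of the second. At 2-fold, 365 of 8622 genes (4.23%) were higher with Fbln5 and 248 (2.88%) with Stmn2. The named genes higher with Fbln5 were Cxcl5, Gdf15, Mt2, Ptx3, Cxcl1, Lcn2, Il1b and Prss23, and all of them except Prss23 had their highest level in library 2. Those higher with Stmn2 were Dpt, Aplnr, Fmo1, Fmo2, C1qtnf9, Klk8, Mmp15 and Slc26a10, with Aplnr at 217 against 22.6 CPM. Marker and library were not separated in these pooled levels.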

How the data were processed

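The authors sequenced 4 heart grafts (2 allogeneic, 2 syngeneic) and deposited a merged matrix of UMI counts per gene and cell, made with Cell Ranger 3.0.0 against mm10 per the file header. It holds 53824 cells and 30905 genes, raw counts without normalization. Reads of both donor strains were aligned to 1 reference, and the effect on H2 genes, Gbp2b and Serpina3g was not tested. The study's filters of over 200 genes and under 20% mitochondrial UMIs were applied here and left 44626 cells. Doublets were kept: the 5% of cells of each library with most simulated doublets among 50 neighbours held 22 of the 455 members, and leaving them out was an alternative.

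UMIs of a gene were summed over cells and divided by their non-mitochondrial UMIs (CPM), with exact Poisson 95% intervals, and shares got exact Clopper-Pearson 95% intervals. Both cover counting error only. A ratio had 10 CPM added to both levels, and genes at 10 CPM or more were compared. As library and graft could not be paired and cells were chosen by counts in the same cells, no test was run. Named genes were those of the gene lists, the 12 highest and 12 lowest called ratios at 50 CPM or more outside marker lists, the 8 widest ranges over libraries, and the 8 largest ratios each way by marker and by Gkn3. A few named items are not reported here. The split by Gkn3 and the upstream windows shown were chosen after values were seen. Members and lists were chosen with earlier results of these data known. Upstream sequences and positions came from RefSeq (GRCm38.p6) and GENCODE M21. Alternatives were stricter cell filters, doublets left out, at least 2 Gja5 UMIs, 1 CPM added, no filter on low values, deep cells only, means over cells and each library left out. Calculations were checked on simulated counts. Software versions were Python 3.11.15, numpy 2.4.6, scipy 1.17.1 and pandas 2.3.3.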

Additional observations from a re-analysis of the deposited data

How the results depend on the processing

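For the allogeneic and syngeneic grafts, no paired analysis was possible because the graft numbers in the labels could not be matched to libraries. Arterial and capillary cells can be paired within a library. That pairing was described by library and, by choice, not tested, since the cells were told apart by counts in the same cells. The cell share of 3.56% was 1.86% with at least 2 Gja5 UMIs and 1.03% after thinning, and 2.94 to 4.36% with a library left out. Against 129 genes called between arterial and capillary cells (101 higher, 28 lower), the count was 264 with 1 CPM added (185 higher, 79 lower), 252 with at least 2 Gja5 UMIs, where library 1 no longer had 50 members (168 higher, 84 lower), and 72 with library 4 included, an alternative chosen after seeing the data (59 higher, 13 lower). Leaving out a library gave 130 to 219 (101 to 157 higher, 29 to 62 lower), the most without library 2. Without any of libraries 1 to 3, a gene had a condition fewer to meet. The 169 genes with a 4-fold range over libraries became 650 with 1 CPM added and 449 with library 4, and 24 to 169 with a library left out. With at least 2 Gja5 UMIs they became 81, over libraries 2 and 3 only. The 613 genes that differed by marker became 1511 with 1 CPM added, 1116 with the mean over cells, and 745 to 1582 with a library left out, the most without library 3. For the 43 named genes that were called, 435 of 602 values under alternatives stayed within the counting interval, 167 moved beyond it and 0 changed direction. Depth limits genes under about 10 CPM, library 4 rested on 47 members, and other causes of the changes in counts were not tested.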
